A study of Mus musculus with 8 samples.

Results

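Retinoic acid is made from vitamin A in 2 oxidation steps, the first by retinol dehydrogenases such as Rdh10 and the last, irreversible one by retinaldehyde dehydrogenases such as Aldh1a2. It is broken down by the Cyp26 enzymes, carried inside cells by the Crabp proteins and read by the nuclear receptors Rara, Rarb and Rarg, which bind DNA together with RXR partners. In the early embryo Aldh1a2 in trunk mesoderm supplies the signal to the posterior heart field, where it patterns the venous pole and sets the rear limit of the second heart field. The transcripts of these 9 genes were examined in mouse pSHF (posterior second heart field) tissue, which lies behind the heart and adds cells to the atrial septum. Every probe of the array that carried the name of Aldh1a2, Rdh10, Cyp26a1, Cyp26b1, Crabp1, Crabp2, Rara, Rarb or Rarg was taken, which gave 14 of 41174 probes. Of these, 8 probes of 7 genes stood well above background throughout 1 group or both (all 4 arrays) and were tested among 20028 probes. Rara and Rarg had no probe that met this condition.

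RNA of the pSHF came from E9.5 mouse embryos (9.5 days post fertilization), with 4 samples of genotype Tbx5-/+ and 4 of genotype Tbx5 WT, called wild-type here. Tbx5 is the T-box transcription factor of the posterior heart field, and Tbx5-/+ embryos carry 1 mutant and 1 normal allele on a mixed background. Mothers of both groups had received gonadotropins to enlarge the litters, and the labels name no other treatment. Each sample was labelled with Cy3 and hybridized to its own array. Samples are named by the embryo number of their label (1, 5, 6 and 7 in each group). They are pools of RNA for which the labels give no number of embryos, so the p-values measure the spread between these samples. The labels do not describe the mutant allele, and the array does not tell the alleles apart.

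Tbx5 itself was read first, as a check of the labels. The normalized log2 signal of its brighter probe was 9.01, 9.73, 9.16 and 8.62 in Tbx5-/+ 1, 5, 6 and 7, and 11.47, 11.56, 10.42 and 11.54 in wild-type 1, 5, 6 and 7. All Tbx5-/+ arrays lay below all wild-type arrays, by -2.12 on average (SE 0.32, 4.34-fold; adjusted p = 0.0920 by limma over all probes, exact two-sided permutation p = 0.0286, the smallest that 4 against 4 arrays allow). With the embryo number as a block, the adjusted p was 0.0336. The other probe of Tbx5 differed by -0.15 (SE 0.32), and by 0.16 (SE 0.22) without Tbx5-/+ 1.

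One array stood apart. Tbx5-/+ 1 correlated across probes at 0.901 to 0.953 with the other Tbx5-/+ arrays and at 0.981 with wild-type 1, whereas Tbx5-/+ 5, 6 and 7 correlated at 0.960 to 0.988 with each other. It lay more than 1 log2 unit outside the range of all 7 other arrays at 1.03% of the probes tested. Of the 8 retinoic acid probes tested, 3 were among these (Aldh1a2 below, Cyp26b1 and Crabp1 above). The comparison of each probe tested is therefore given with and without this array. Since Aldh1a2, Cyp26b1 and Crabp1 helped to single it out, their p-values and lack of overlap without it depend on that choice. They are given as a description only. At the brighter Tbx5 probe its level lay within those of the other Tbx5-/+ arrays. At the other probe it measured 6.05 and was not well above background, where Tbx5-/+ 5, 6 and 7 measured 7.03, 7.55 and 7.31. Each sample is a mixture of cells, and fewer cells of a type and less RNA per cell cannot be told apart in it.

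Retinoic acid receptors bind pairs of short repeats, and Rarb and Cyp26a1 are textbook targets of the signal. Promoter windows of RefSeq (GRCm38.p6, 250 bases before to 50 bases after a gene's start) were found for 7 of the 9 genes, in 11 windows, and searched on both strands for GNTCANNNNNNGNTCA, the direct repeat with a 5-base spacer. This motif stood in 283 of 32851 windows (0.861%). Among the retinoic acid genes it stood in 1 window of Rarb and 1 of Cyp26a1, and these letters were not found in the windows of Aldh1a2, Cyp26b1, Crabp1, Rara and Rarg. A match is a description of sequence, and no binding was measured. The last 120 bases before each start are printed 5′ to 3′ on the gene's strand because they show the element these 2 genes share, with the match in capitals. The Rarb stretch is chr14:16575477-16575596 on the minus strand, with the match 52 to 37 bases before the start. The Cyp26a1 stretch is chr19:37697688-37697807 on the plus strand, with the match 32 to 17 bases before the start and on the opposite strand, where it reads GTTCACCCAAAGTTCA.
Rarb: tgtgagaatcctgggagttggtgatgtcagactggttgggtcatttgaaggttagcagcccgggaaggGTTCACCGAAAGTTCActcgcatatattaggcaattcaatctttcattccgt
Cyp26a1: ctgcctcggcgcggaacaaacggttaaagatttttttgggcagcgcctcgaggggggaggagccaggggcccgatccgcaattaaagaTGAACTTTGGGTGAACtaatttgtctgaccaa

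The array read each transcript with 60-base probes whose positions the scanner files give on mm9, and no annotation of that build was used here. Of the 14 probes, 12 lay in 1 block of 60 bases. The probe A_51_P372858 of Rarg and A_52_P495759 of Rarb crossed an intron, the last spanning 26709 bases of chr14:17381032-17407740. Its sequence is shown with that of the Crabp1 probe A_52_P185907 (chr9:54616192-54616251), the first because it reads spliced RNA and the other because the result on Crabp1 rests on it alone.
Rarb A_52_P495759: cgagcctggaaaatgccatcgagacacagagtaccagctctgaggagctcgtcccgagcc
Crabp1 A_52_P185907: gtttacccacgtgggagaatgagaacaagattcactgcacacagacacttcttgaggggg

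No retinoic acid probe passed an adjusted p of 0.05 between the 4 Tbx5-/+ and the 4 wild-type arrays (0 of 8 by limma). Over the whole array the share called was 0% as well, with 18.5% of probes lower and 3.37% higher at an unadjusted p under 0.05, against 0 and 1 of the 8. Without Tbx5-/+ 1, 3 of the 8 passed, Aldh1a2 higher and Cyp26b1 and Crabp1 lower, where 19.2% of all probes tested were called. No member passed when both arrays of number 1 were left out, at a background of 15.8%, and none with the embryo number as a block, at 11.1%. The median difference over the 8 probes was -0.16, and -0.19 over all probes tested. Without Tbx5-/+ 1 these medians were -0.41 and -0.16. The plot of the 8 probes by array shows these values.

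**Figure D1:**
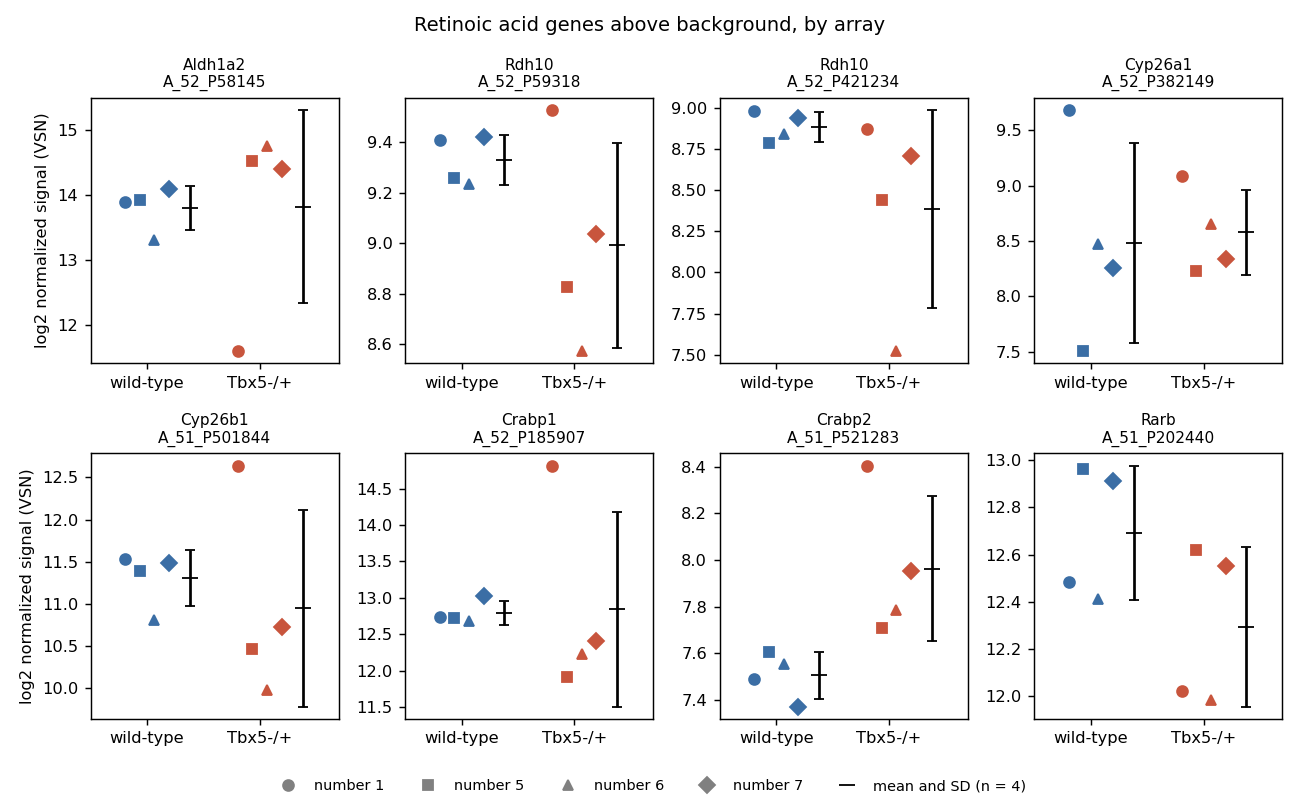
Normalized log2 signal of the 8 retinoic acid probes tested, by array, with the mean and SD of each group (n = 4) at its right and the marker shape giving the embryo number. Tbx5-/+ 1 (circle) lies at 11.61 for Aldh1a2, where the other 7 arrays lie between 13.30 and 14.75, and at 14.82 for Crabp1, where they lie between 11.92 and 13.03.

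Synthesis of retinoic acid was read through Aldh1a2 and Rdh10. The Aldh1a2 probe (A_52_P58145, chr9:71143931-71143990) measured 11.61, 14.52, 14.75 and 14.40 log2 units in Tbx5-/+ 1, 5, 6 and 7, and 13.89, 13.92, 13.30 and 14.09 in the wild-type arrays of the same numbers. Tbx5-/+ 5, 6 and 7 were above every wild-type array, and Tbx5-/+ 1 differed from the mean of those 3 by -2.95 log2 units (7.73-fold lower). The group means of 13.82 ± 1.48 and 13.80 ± 0.34 (SD, n = 4) differed by 0.02 (SE 0.61, 95% interval -1.35 to 1.39, adjusted p = 0.987 by limma). Without Tbx5-/+ 1, Aldh1a2 was higher in Tbx5-/+ by 0.76 (SE 0.22, 1.69-fold, adjusted p = 0.0457 by limma, exact two-sided permutation p = 0.0286, the smallest that 3 against 4 arrays allow). The range of adjusted p over all alternatives run for this probe was 0.0457 to 0.99962.

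The Aldh1a2 difference had opposite signs on the 2 slides. On the slide of numbers 1 and 5 the Tbx5-/+ arrays were lower by -0.84 on average, and on that of numbers 6 and 7 they were higher by 0.88. Within pairs of the same number, Tbx5-/+ minus wild-type was -2.28, 0.60, 1.45 and 0.32 for numbers 1, 5, 6 and 7. With number 1 left out in both groups the difference was 0.79 with an adjusted p of 0.0619 by limma.

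Rdh10, which oxidizes retinol to retinaldehyde, had 2 probes tested on chromosome 1, A_52_P421234 (16121478 to 16121537) and A_52_P59318 (16122062 to 16122121). The second of these measured 9.53, 8.83, 8.57 and 9.04 in Tbx5-/+ 1, 5, 6 and 7 and 9.41, 9.26, 9.23 and 9.42 in the wild-type arrays. The first measured 8.88, 8.44, 7.52 and 8.71, and 8.98, 8.79, 8.84 and 8.94 in the same order. Tbx5-/+ 5, 6 and 7 were below every wild-type array at both probes, and Tbx5-/+ 1 lay within or above the wild-type range. With all arrays neither difference passed, with values of -0.34 (SE 0.22, adjusted p = 0.364 by limma) and -0.50 (SE 0.28, adjusted p = 0.300). Without Tbx5-/+ 1 they were -0.52 and -0.67, with adjusted p of 0.0611 and 0.102 by limma. Without Tbx5-/+ 6 they were -0.20 and -0.21. When arrays were weighted by their fit, A_52_P59318 passed at -0.38 (SE 0.13, adjusted p = 0.0278 by limma), in a fit that called 10014 of the 20028 probes. Within pairs of numbers 1, 5, 6 and 7, A_52_P421234 differed by -0.11, -0.35, -1.32 and -0.23. A_52_P59318 differed by 0.12, -0.43, -0.66 and -0.39. With the embryo number as a block, their adjusted p was 0.170 and 0.238 by limma.

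Breakdown was read through Cyp26a1 and Cyp26b1, the cytochromes that oxidize retinoic acid. Cyp26b1 (A_51_P501844, chr6:84521952-84522011, minus strand) measured 12.64, 10.46, 9.97 and 10.72 in Tbx5-/+ 1, 5, 6 and 7. The wild-type arrays measured 11.54, 11.39, 10.81 and 11.48. Tbx5-/+ 5, 6 and 7 were below every wild-type array, and Tbx5-/+ 1 was above all of them and 4.78-fold above the other Tbx5-/+ arrays. The difference was -0.35 with all arrays (SE 0.50, 95% interval -1.47 to 0.76, adjusted p = 0.674 by limma). It was -0.92 without Tbx5-/+ 1 (SE 0.25, 1.89-fold lower, adjusted p = 0.0396 by limma, exact permutation p = 0.0571), and -0.70 with array weights (adjusted p = 0.0187). Without Tbx5-/+ 6 it was -0.03. Over all alternatives the adjusted p ran from 0.0187 to 0.995. By slide, the difference was 0.09 for numbers 1 and 5 and -0.80 for numbers 6 and 7.

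Cyp26a1 (A_52_P382149, chr19:37775566-37775625), the family member with the response element printed above, measured 9.08, 8.23, 8.65 and 8.34 in Tbx5-/+ 1, 5, 6 and 7. The wild-type arrays gave 9.68, 7.51, 8.47 and 8.26, so that the wild-type group alone covered 2.17 log2 units and enclosed all Tbx5-/+ values. In both groups the array of number 1 was the highest. The difference was 0.10 (SE 0.41, 95% interval -0.82 to 1.02, adjusted p = 0.898 by limma) and -0.07 without Tbx5-/+ 1, and changes of up to about 1 log2 unit upward lie within the interval.

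The binding proteins Crabp1 and Crabp2 carry retinoic acid in the cytoplasm, Crabp2 to the receptors. Crabp1 measured 14.82, 11.92, 12.22 and 12.40 in Tbx5-/+ 1, 5, 6 and 7, and 12.73, 12.72, 12.68 and 13.03 in the wild-type arrays. Tbx5-/+ 5, 6 and 7 were below every wild-type array, whereas Tbx5-/+ 1 was 2.64 log2 units (6.21-fold) above the other Tbx5-/+ arrays. The difference was 0.05 with all arrays (SE 0.55, 95% interval -1.17 to 1.27, adjusted p = 0.964 by limma) and -0.61 without Tbx5-/+ 1 (SE 0.18, 1.53-fold lower, adjusted p = 0.0498 by limma, exact permutation p = 0.0286). Over all alternatives the adjusted p ran from 0.0498 to 0.992, and with number 1 left out in both groups it was 0.0655. By slide, the difference was 0.64 for numbers 1 and 5 and -0.54 for numbers 6 and 7.

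Crabp2 (A_51_P521283, chr3:87752682-87752741) was the only member probe whose groups did not overlap with all arrays in use. It measured 8.41, 7.71, 7.79 and 7.95 in Tbx5-/+ 1, 5, 6 and 7 and 7.49, 7.61, 7.56 and 7.37 in the wild-type arrays. All 4 Tbx5-/+ arrays were above all wild-type arrays, which held for 0.744% of the probes tested over the whole array. No member lay wholly below wild-type (0 of 8), beside 8.99% of all probes. The difference of 0.46 (SE 0.20, 1.37-fold, 95% interval 0.01 to 0.91) had an unadjusted p of 0.0464 and did not pass adjustment (adjusted p = 0.223 by limma, exact permutation p = 0.0286). It was 0.31 without Tbx5-/+ 1 (SE 0.15, adjusted p = 0.159 by limma). By slide it was 0.51 for numbers 1 and 5 and 0.41 for numbers 6 and 7. The signal was low, though well above background on all arrays. Before normalization it was 442, 153, 119 and 172 in Tbx5-/+ 1, 5, 6 and 7 and 237, 244, 229 and 199 in wild-type. Tbx5-/+ 5, 6 and 7 were thus higher only after normalization. The Crabp2 limits under other settings follow. The difference stayed above 0 in every alternative run, between 0.31 and 0.85, highest when arrays were scaled to their 75th percentile. Its adjusted p by limma ran from 0.0126 with array weights to 0.451.

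The intervals of all 8 differences are set side by side in the plot with and without Tbx5-/+ 1. Without that array 4 of the 8 probes were wholly below wild-type and 2 wholly above. Over the whole array 37.8% of probes did not overlap in that comparison, 21.9% lower and 16% higher.

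**Figure D2:**
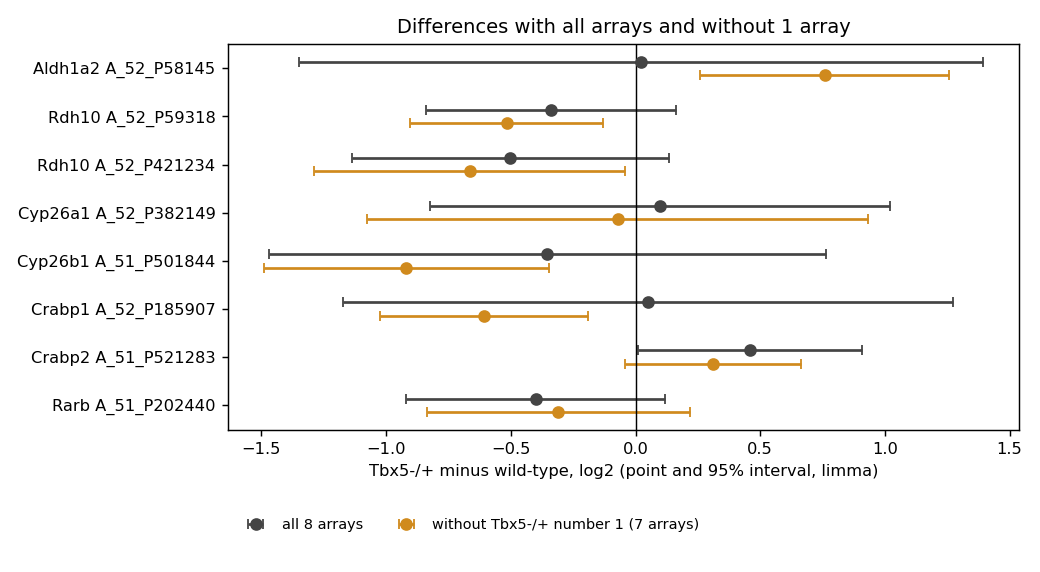
Difference in log2 signal, Tbx5-/+ minus wild-type, with its 95% interval by limma for each probe tested, over all 8 arrays (dark) and over the 7 arrays without Tbx5-/+ 1 (orange). The Aldh1a2 interval runs from -1.35 to 1.39 with all arrays and from 0.26 to 1.26 without Tbx5-/+ 1, and the Crabp1 point moves from 0.05 to -0.61.

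Of the receptors, Rarb had 1 probe well above background on all arrays (A_51_P202440, chr14:17263511-17263570, minus strand). It measured 12.02, 12.62, 11.98 and 12.55 in Tbx5-/+ 1, 5, 6 and 7 and 12.48, 12.96, 12.41 and 12.91 in the wild-type arrays. The groups overlapped, but Rarb was lower in Tbx5-/+ than in wild-type within each of the 4 numbers, by -0.46, -0.35, -0.43 and -0.36. The difference of -0.40 (SE 0.23, 95% interval -0.92 to 0.12) did not pass in the unpaired comparison (adjusted p = 0.309 by limma) or with the embryo number as a block (adjusted p = 0.124 by limma). It was -0.31 without Tbx5-/+ 1 and was below 0 in every alternative run (-0.51 to -0.03), nearest to 0 when arrays were scaled to their 75th percentile. Relative to the median of all probes, it was -0.21. By slide it was -0.40 for numbers 1 and 5 and also -0.40 for numbers 6 and 7. Unlike Aldh1a2, Cyp26b1 and Crabp1, Rarb in Tbx5-/+ 1 lay within the range of the other Tbx5-/+ arrays.

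The remaining receptor probes were near background and were not tested. The intron-crossing Rarb probe stood well over background on 1 array of Tbx5-/+ and 3 of wild-type, with group means of 6.13 ± 0.68 and 6.60 ± 0.23 (SD, n = 4). Rara (A_51_P389724, chr11:98831859-98831918) did so on the same numbers of arrays. It measured 6.53, 6.37, 4.80 and 6.41 in Tbx5-/+ 1, 5, 6 and 7 and 7.19, 6.84, 6.39 and 6.88 in the wild-type arrays, and the exact permutation p of this single probe was 0.0857. The 4 Rarg probes on chromosome 15 were well above background on 2, 1, 1 and 0 Tbx5-/+ arrays and on 3, 2, 2 and 1 wild-type arrays. Their differences were -0.15 (A_51_P372853), 0.37 (A_52_P26409), -0.004 (A_51_P372858) and 0.02 (A_52_P380418), and all overlapped. Levels so close to background carry little weight, as the plot of the dim receptor probes shows.

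**Figure D3:**
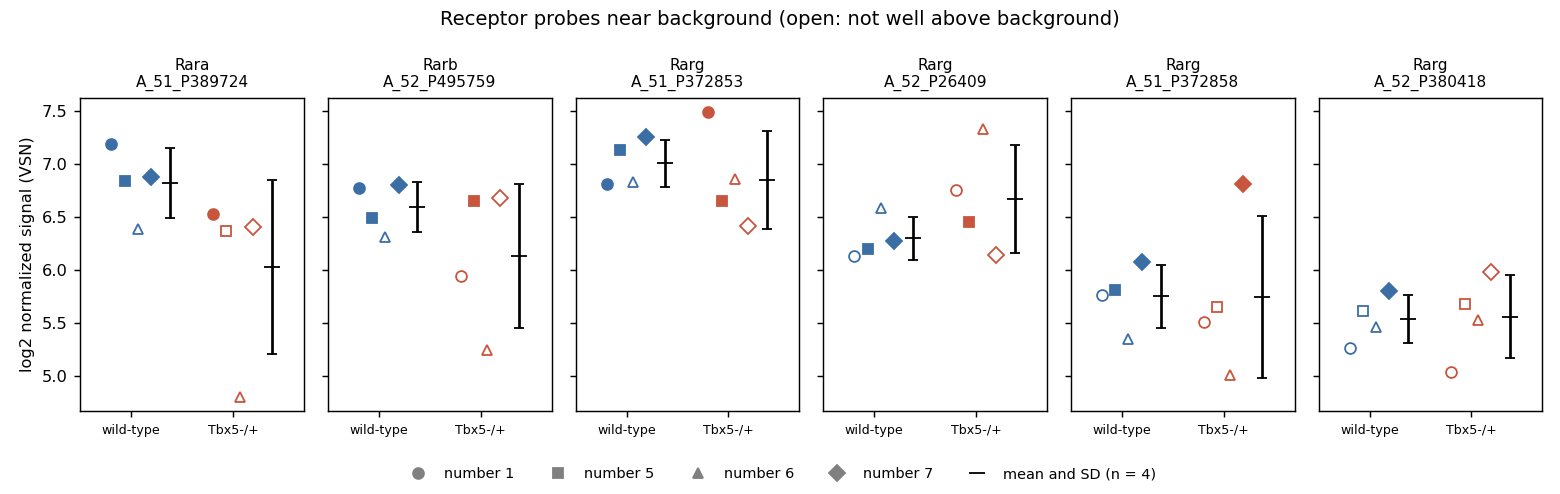
Normalized log2 signal of the 6 receptor probes that were not tested, by array, with open symbols where the spot was not well above background and the mean and SD of each group (n = 4) at its right. Open symbols outnumber filled ones in the Tbx5-/+ group, and Rara in Tbx5-/+ 6 lies lowest at 4.80.

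Markers of neighbouring tissues were read on the arrays because the results on Aldh1a2, Cyp26b1 and Crabp1 turned with Tbx5-/+ 1. Of 7 neural genes tested, 5 were more than 1 log2 unit higher in Tbx5-/+ 1 than in the mean of the other Tbx5-/+ arrays. Pax6 measured 10.53 there and 7.10 to 7.84 in Tbx5-/+ 5, 6 and 7, and Sox2 measured 11.04 against 8.17 to 8.60. The mean over the neural genes was 10.54 in Tbx5-/+ 1, 8.37 to 8.98 in the other Tbx5-/+ arrays and 7.79 to 10.23 in wild-type. The highest wild-type value was that of wild-type 5, whose Crabp1 level of 12.72 lay with the other wild-type arrays. The neuronal tubulin Tubb3 went the other way, at 10.33 in Tbx5-/+ 1 and 11.13 to 11.62 in the other Tbx5-/+ arrays. Sox1 was not well above background on any array.

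Mesothelial and epicardial genes went the other way. Of 8 tested, 6 were more than 1 log2 unit lower in Tbx5-/+ 1 than in the other Tbx5-/+ arrays, among them Wt1 (8.36 against 10.14 to 11.06) and Tbx18 (9.19 against 10.53 to 10.71), both genes of epicardial precursors. The mean over this list was 8.36 in Tbx5-/+ 1 and between 9.43 and 9.76 on all others. Genes of primitive erythrocytes were lower by over 1 unit for 7 of 9, at a mean of 11.23 in Tbx5-/+ 1, with wild-type 1 close to it at 11.30 and the other 6 arrays at 12.58 or higher. The list of pSHF genes had a mean of 8.88 to 9.51 in Tbx5-/+ and 9.70 to 10.24 in wild-type, with Tbx5-/+ 1 at 8.92. This list holds Tbx5 itself, and of its 15 genes Osr2 was not well above background on any array. The mean over 10 endothelial genes was 10.11 to 10.84 in Tbx5-/+ and 10.96 to 11.28 in wild-type. The median of all probes tested also separated the groups, at 9.47 to 9.83 in Tbx5-/+ and 9.89 to 10.06 in wild-type. A separation of the groups is therefore not particular to the pSHF and endothelial lists. In Tbx5-/+ 1, 5 of 12 cardiomyocyte genes and 4 of 7 liver genes were lower than in the other Tbx5-/+ arrays by more than 1 log2 unit. Of 12 foregut genes, 4 were higher and 3 lower by that much, as were 2 and 2 of 6 somite genes and 1 and 0 of 6 neural crest genes. The part of these markers in the retinoic acid results was not tested.

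**Figure D4:**
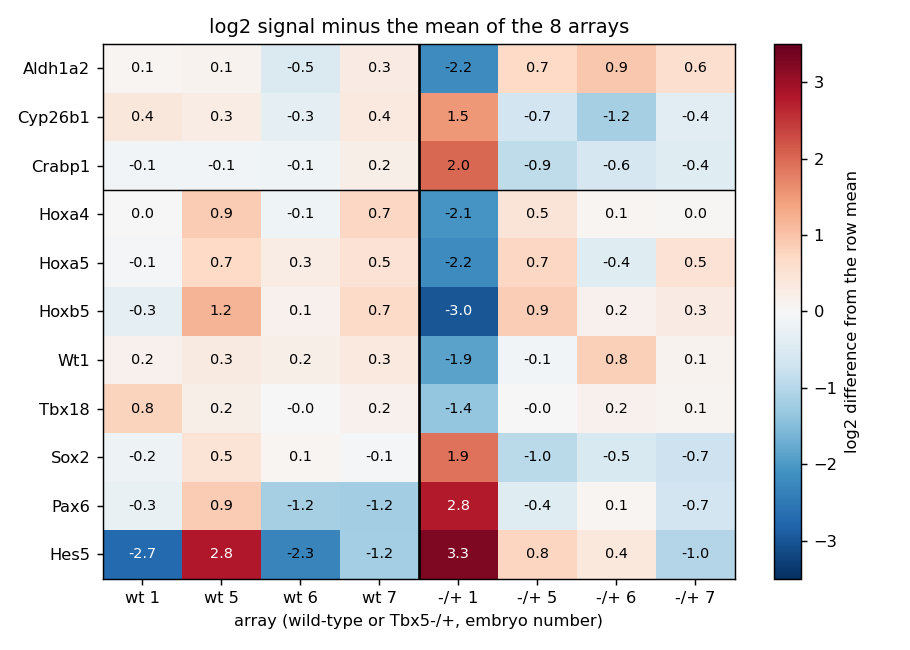
Log2 signal of each gene on each array minus its mean over the 8 arrays, for 3 retinoic acid genes (top) and for Hox, mesothelial and neural genes chosen after their values were seen (bottom). In Tbx5-/+ 1, Aldh1a2 lies low with Hoxa4, Hoxa5, Hoxb5, Wt1 and Tbx18, and Crabp1 and Cyp26b1 lie high with Sox2, Pax6 and Hes5, whereas Hes5 is also high in wild-type 5.

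A measure of RNA quality moved with the genotype. For 3258 genes with probes at least 100 bases apart on a transcript, the mean signal of 3′ probes exceeded that of 5′ probes by 0.94, 1.25, 1.44 and 1.31 log2 units in Tbx5-/+ 1, 5, 6 and 7 and by 0.90, 0.99, 1.07 and 0.96 in the wild-type arrays. Tbx5-/+ 1 lay within the wild-type range. With this gap as a covariate the differences became -1.41 for Aldh1a2 (adjusted p = 0.285 by limma), 0.99 for Cyp26b1 (adjusted p = 0.226) and 1.35 for Crabp1 (adjusted p = 0.257), all opposite in sign to those without Tbx5-/+ 1. The gaps of Tbx5-/+ 5, 6 and 7 lay above all wild-type gaps. Genotype and gap are therefore hard to separate in this fit, and its group differences lean on Tbx5-/+ 1. These signs cannot be read as a correction for RNA quality. The part of RNA quality in these results was not tested further.

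Other genes of the pathway were read from a list of 30 genes for uptake, storage, oxidation, RXR partners and cofactors, of which 23 were tested. None passed (0 by limma, adjusted), and 6 were lower (26.1%) and 1 higher (4.35%) at an unadjusted p under 0.05, beside 18.5% and 3.37% of all probes. The median difference was -0.05, beside -0.19 over all probes. The smallest p-values, none of which passed, belonged to nuclear receptor cofactors and an RXR. The corepressor Ncor1 measured 12.14, 11.04, 10.03 and 10.55 in Tbx5-/+ 1, 5, 6 and 7 and 11.87 to 12.64 in wild-type, a difference of -1.42 (SE 0.41, adjusted p = 0.136). Nrip1, a ligand-dependent corepressor, differed by -1.13 (adjusted p = 0.141 by limma), the coactivator Ep300 by -0.64 (adjusted p = 0.172), with no overlap between its groups, and Rxrb by -0.95 (adjusted p = 0.208). Of all probes, 8.99% lay wholly below wild-type. Without Tbx5-/+ 1, Ep300 and Rxrb differed by -0.70 (adjusted p = 0.0520 by limma) and -1.18 (adjusted p = 0.0579). With the 3′ to 5′ gap as a covariate, Ncor1 differed by -0.36, Nrip1 by -0.49, Ep300 by -0.41 and Rxrb by -0.14, and no gene of the list passed.

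With the embryo number as a block, 3 genes of this list passed, all lower in Tbx5-/+ (background 10.7% lower). These were Ncor1 (adjusted p = 0.0363 by limma), Rxrb (0.0485) and Stra6, the receptor for retinol bound to its plasma carrier (difference -0.98, 0.0450). Stra6 was well above background on 3 Tbx5-/+ arrays and was tested only because all wild-type arrays were. Without Tbx5-/+ 1, 2 were lower and 3 higher, at a background of 12.1% and 7.03%. The lower ones were Ncor1 (-1.82, adjusted p = 0.00905) and Nrip1 (-1.39, 0.0194). The higher ones were the dehydrogenases Rdh5 (1.43, 0.0196), Rdh12 (0.62, 0.0460) and Adh5 (0.72, 0.0305). With all arrays these 3 differed by 0.93, 0.39 and 0.53, with adjusted p of 0.266, 0.363 and 0.223.

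The retinaldehyde dehydrogenase Aldh1a1 shared the low value of Aldh1a2 in Tbx5-/+ 1 (8.19, with 10.48 to 10.92 in Tbx5-/+ 5, 6 and 7) but was also low in wild-type 1 (7.88, with 10.15 to 10.95 in the other wild-type arrays). Its difference was 0.23 with all arrays (adjusted p = 0.863 by limma) and 0.85 without Tbx5-/+ 1 (adjusted p = 0.324). It was named after its values were seen, as were Stra6, Rdh5, Rdh12 and Adh5.

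Genes known to respond to retinoic acid in the trunk and heart field were read from a list of 24, which shares Dhrs3 and Stra6 with the list above, and 22 were tested. None passed (0 by limma, adjusted), with 6 lower (27.3%) and 1 higher (4.55%) at an unadjusted p under 0.05, beside 18.5% and 3.37% of all probes. The median difference was -0.55, beside -0.19 for all probes. The 4 smallest p-values belonged to Hox genes of the hindbrain and anterior trunk and to the transglutaminase Tgm2. Hoxb4 measured 6.46, 6.81, 5.64 and 6.47 in Tbx5-/+ 1, 5, 6 and 7 and 8.09, 8.08, 7.34 and 8.14 in wild-type, a difference of -1.57 (SE 0.29, adjusted p = 0.0920). It was well above background on 1 Tbx5-/+ array and was tested only because all wild-type arrays were, so that its Tbx5-/+ level is mostly one near background. Tgm2 differed by -0.82 (SE 0.23, adjusted p = 0.127 by limma) and Hoxa3 by -1.17 (SE 0.35, adjusted p = 0.147), each without overlap, and Hoxb1 by -1.04 (SE 0.37, adjusted p = 0.188). Over the whole array, 8.99% of probes lay wholly below wild-type. Hoxa3 was well above background on 3 Tbx5-/+ arrays and was, like Hoxb4, tested only because all wild-type arrays were. With the 3′ to 5′ gap as a covariate these differences were -1.17 (Hoxb4), -1.004 (Tgm2), -0.61 (Hoxa3) and -0.26 (Hoxb1), and no gene of the list passed.

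With the embryo number as a block, 5 genes of this list passed lower (Hoxb4, Hoxb1, Hoxa3, Hoxb3 and Stra6) and Fgf8, a growth factor that retinoic acid is known to restrict at the rear of the heart field, passed higher (1.54, adjusted p = 0.0336 by limma). Over all probes 10.7% passed lower and 0.379% higher in that fit. Of the genes that passed lower, Hoxb4, Hoxa3 and Stra6 were tested only because all wild-type arrays were well above background. Fgf8 measured 11.64, 9.05, 11.22 and 10.24 in Tbx5-/+ 1, 5, 6 and 7 and 10.01, 7.84, 9.75 and 8.38 in wild-type, higher in Tbx5-/+ within each number although the groups overlapped. Without Tbx5-/+ 1, Hoxb4, Hoxb1, Hoxa3 and Tgm2 were lower (4 of 22) and Nr2f2 was higher (1 of 22), beside 12.1% and 7.03% of all probes. Here too Hoxb4 and Hoxa3 were tested only through wild-type. Nr2f2 differed by 1.13 in that comparison (adjusted p = 0.0257 by limma) and by 0.55 with all arrays (adjusted p = 0.521), and Fgf8 did not pass (1.17, adjusted p = 0.194).

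Some Hox genes of the list were low in Tbx5-/+ 1, and others were not. Hoxa5 measured 6.61 there and 8.39 to 9.53 in the other Tbx5-/+ arrays, and Hoxb5 measured 8.05 against 11.19 to 11.90. Hoxa4 measured 8.02 against 10.13 to 10.54. These genes, like Hoxb3, Hoxd4, Fgf8 and Nr2f2, were named after their values were seen. Hoxb3 was also lowest there, at 9.68. Hoxb4 lay within the other Tbx5-/+ arrays (6.46), and Hoxd4 at 8.45 lay above wild-type 1 at 7.53. Hoxa4, Hoxa5 and Hoxb5 were below every wild-type array in Tbx5-/+ 1, as Aldh1a2 was, and their differences without that array were -0.18 (Hoxa4), -0.09 (Hoxa5) and 0.02 (Hoxb5).

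**Figure D5:**
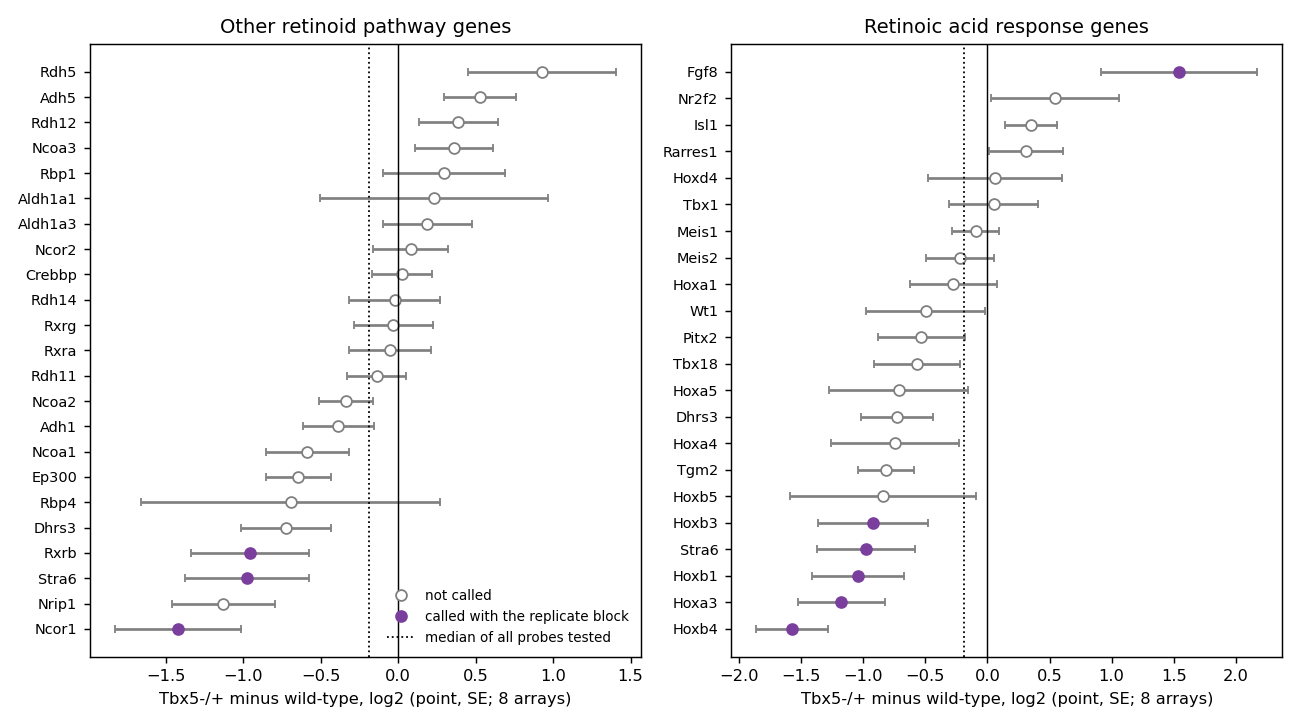
Difference in log2 signal, Tbx5-/+ minus wild-type over 8 arrays, with its SE, for the 23 other retinoid pathway genes and the 22 retinoic acid response genes tested, filled where the adjusted p was under 0.05 with the embryo number as a block. The dotted line is the median of all probes tested (-0.19), and the filled genes lie at the lower end of both lists except Fgf8 at 1.54.

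The genes whose pattern over the 8 arrays was most like that of a member are given as a description, out of 18729 probes compared, and all share the same 8 RNA samples. For Aldh1a2 these were Leng1 (Pearson's r = 0.985, and 0.968 without Tbx5-/+ 1) and Fam82a1 (0.984 and 0.920). For Rdh10 they were Cpne3 (0.988) and 6530401N04Rik (0.981), for Cyp26a1 Adat1 (0.982) and Nudt10 (0.978), and for Cyp26b1 Mapk12 (0.990) and Slc2a6 (0.971). Crabp1 was most like Pipox (0.980, and 0.879 without Tbx5-/+ 1) and 6430573F11Rik (0.975 and 0.952). Crabp2 had the loosest matches, with Figf at 0.940 and Dll1 at 0.938, which were 0.788 and 0.820 without Tbx5-/+ 1. Rarb was most like Fuca1 (0.989) and Ppp2r5c (0.981).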

How the data were processed

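Cy3-labelled cRNA of 8 RNA pools was hybridized to 1-colour Agilent arrays on 2 slides (numbers 1 and 5, numbers 6 and 7). Per the file headers, the deposited scanner files hold intensity values and quality marks from Agilent Feature Extraction 10.5.1.1, and the authors also deposited log2 values normalized by variance stabilization (VSN) for 22405 probes. The deposited marks for spots well above background set the filter. Here each spot's local background was taken off its mean signal, outlier spots were left out, VSN was computed in R 4.3.3 and repeated spots were averaged, after which values correlated with the deposited ones at 0.9999 or above on every array. The number of arrays limits the precision.

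Probes well above background on all 4 arrays of a group were compared with limma 3.58.1 (no covariate), with Benjamini-Hochberg adjustment over 20028 probes and a threshold of 0.05, and the script was tested on simulated data. For a list gene the brightest of its tested probes was used. All members, the 4 list genes with the smallest p and the 2 most alike genes of each member were named. The members and lists were chosen with earlier results of these data known. Deviations from the group mean of samples with the same embryo number correlated at 0.137 to 0.593 in all 4 pairs. Between different numbers they correlated at -0.599 to 0.372, so that the 2 ranges overlap. The numbers were taken to pair the samples, which the labels do not state, and the number was used as a block in an alternative. Leaving out each array in turn was planned. Setting Tbx5-/+ 1 apart from the other arrays, and leaving out number 1 in both groups, were chosen after seeing the data. The other alternatives changed the normalization, the filter, the weights, the slide as a block and the replicates.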

Additional observations from a re-analysis of the deposited data

Results flagged for a closer look

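Of 28 groups of 4 arrays (14 probes in each genotype), 4 held an array whose gap to the nearest other exceeded the 95% critical value of Dixon's test, where chance would mark about 5% of groups. The Aldh1a2 probe measured 11.61 in Tbx5-/+ 1, and the nearest Tbx5-/+ array 14.40. The Crabp1 probe measured 14.82 in the same array, and the nearest 12.40. Wild-type 7 stood apart for Crabp1 at 13.03, next to 12.73, within a group that covered 0.35 log2 units. Rara in Tbx5-/+ 6 measured 4.80, next to 6.37, at a probe not well above background there. Of these 4 values, 2 came from Tbx5-/+ 1.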

How the results depend on the processing

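The directions for Crabp2 and Rarb held in all alternatives run, each of which used normalized values. The Aldh1a2 difference (0.02) turned to -0.058 after normexp and quantile normalization, to -1.41 with the 3′ to 5′ gap as a covariate, and to between -0.29 and 0.76 with 1 array left out. Rdh10 turned to 0.017 (A_52_P59318, normexp and quantile) and, with the gap, to 0.11 (A_52_P59318) and 0.030 (A_52_P421234). Cyp26a1 turned to -0.07 without Tbx5-/+ 1 and -0.23 without wild-type 5 (up to 0.50 with another array left out). Cyp26b1 turned to 0.99 with the gap, and Crabp1 to -0.54 with array weights, -0.61 without Tbx5-/+ 1 (up to 0.36 without another) and -0.63 without number 1 in both groups, with 1.35 under the gap. As said above, the fits with the gap lean on Tbx5-/+ 1. The cause of these turns was not tested.

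With the replicate block, 2221 probes passed over the whole array, 3 other pathway genes and 6 response genes, and Tbx5 (-2.12) passed; it changed no call of a retinoic acid member. The filter of the study's methods gave 201 probes, 2 response genes and Tbx5 at -2.12. Array weights gave 10014 probes, 3 members, 13 pathway and 11 response genes and Tbx5 at -2.52. Leaving out 1 array gave 0 to 3838 probes (Tbx5-/+ 1 left out 3838, wild-type 1 left out 211), 0 to 3 members, 0 to 5 pathway genes, 0 to 5 response genes and a Tbx5 difference of -2.39 to -1.95, which passed at -2.08 without Tbx5-/+ 1 and -2.04 without wild-type 1. Without number 1 in both groups these were 3157, 0, 5 and 2, with Tbx5 at -2.003. The median of all probes was -0.19, but 0.10 after scaling to the 75th percentile and 0.13 after centring, and these 2 scalings turned no member's direction but took Cyp26b1 (-0.35) to -0.0060 and -0.033, Rdh10 A_52_P59318 (-0.34) to -0.014 and -0.017, and Aldh1a2 to 0.39 and 0.34. Dim signal limits Rara, Rarg and the intron-crossing Rarb probe.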
